A study of Mus musculus with 18 samples.

Results

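The genes of the endoplasmic reticulum (ER) chaperones and of the unfolded protein response were examined in skeletal muscle, heart and hippocampus of transgenic mice and of wild type littermates. Members were the 34 genes of a list, each read from probe sets that carry that gene's symbol and no other. This list and the other gene lists below were chosen with earlier results of these data known. Shares of all probe sets beside their counts are therefore a description and not a test. Of the 34 members, 32 were measured, by 35 of the 35382 probe sets on the arrays. Ddit3, which encodes CHOP, shared its probe set with Mars1, and Pdia4 shared its probe set with a microRNA gene, so neither has a level here. The measured members were 11 chaperones and co-chaperones, 3 protein disulfide isomerases, 5 genes of the stress sensors and their immediate effectors, 7 genes of ER-associated degradation and the translocon, and 6 genes of the Atf4 branch. The Atf4 branch is described apart from the other 26.

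All animals were C57BL/6 mice. The transgenic group carried TN-XXL, a calcium indicator built from fluorescent proteins and a troponin C domain, and its arrays are titled +/+. Wild type littermates carried no transgene. Each genotype was measured in 3 tissues with 3 arrays per tissue and genotype, 18 arrays in all. The labels give no age or sex, no promoter for the transgene and no link between tissues of 1 animal, so p-values measure the spread between these arrays, which may be technical. In whole tissue, a smaller share of the cells that express a gene and less transcript per cell cannot be told apart.

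Proteins that enter the ER are folded by chaperones such as BiP (Hspa5) and GRP94 (Hsp90b1), by the lectin chaperones calreticulin and calnexin, and by protein disulfide isomerases. When unfolded proteins build up, the sensors IRE1 (Ern1), ATF6 and PERK (Eif2ak3) are activated. IRE1 and ATF6 act through spliced XBP1 and cleaved ATF6 on chaperone and degradation genes, many of which carry an ER stress response element in their promoter. PERK phosphorylates eIF2 alpha, which slows translation in general and favours translation of ATF4, a transcription factor of amino acid and stress genes that other eIF2 alpha kinases also reach. Striated muscle depends on the related sarcoplasmic reticulum for calcium release, and several of these chaperones bind calcium.

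The ER stress response element (ERSE: CCAAT, then 9 bases of any kind, then CCACG) was searched, on both strands, in the 300 bases from 250 before to 50 after each gene start, in RefSeq promoters of assembly GRCm38.p6. It was present in 39 of 32851 such windows (0.119%) and in 9 of the 30 members with a window. The 10 matches are shown because the members that hold them are compared further on. Capitals mark the fixed letters of the element, and each match is written 5′ to 3′ on the strand that carries it.
Hspa5, chr2:34772025-34772043, plus strand: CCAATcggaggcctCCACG
Hsp90b1, chr10:86705638-86705656, minus strand: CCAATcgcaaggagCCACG
Hsp90b1, chr10:86705533-86705551, plus strand: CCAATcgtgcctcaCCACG
Calr, chr8:84847075-84847093, plus strand: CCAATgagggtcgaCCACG
Canx, chr11:50325800-50325818, minus strand: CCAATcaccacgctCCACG
Dnajc3, chr14:118937827-118937845, plus strand: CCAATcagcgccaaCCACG
Creld2, chr15:88819520-88819538, minus strand: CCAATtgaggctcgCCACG
Pdia6, chr12:17266491-17266509, plus strand: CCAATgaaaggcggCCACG
Syvn1, chr19:6046532-6046550, plus strand: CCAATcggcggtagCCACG
Derl3, chr10:75893242-75893260, minus strand: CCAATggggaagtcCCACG

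Other elements were rarer among the members. ERSE-II (ATTGG, 1 base of any kind, CCACG) was present in 12 windows of all genes (0.037%) and in those of Herpud1 and Dnajb11. The C/EBP-ATF element TTGCATCA was present in 294 windows (0.895%), those of Atf3, Chac1 and Herpud1 among them. The element NSRE-1 of the asparagine synthetase gene (TGATGAAAC) was present in 81 windows (0.247%), including that of Asns. The cyclic AMP response element TGACGTCA was present in 588 windows (1.79%) and, of the members, in that of Ppp1r15a. The core of the UPR element (TGACGTGG) was present in 222 windows (0.676%) and in no member's window. No 2 matches overlapped in the members' windows.

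The whole windows of 5 members are given below as examples that hold an ERSE, ERSE-II, C/EBP-ATF or NSRE-1 match. Capitals mark the ERSE letters of Hspa5 and Hsp90b1, the C/EBP-ATF element and then ERSE-II in Herpud1, NSRE-1 in Asns, and the C/EBP-ATF element in Chac1. Each window is written 5′ to 3′ on the strand of its gene, so the second Hsp90b1 match appears as its reverse complement. A match describes letters in the window and does not show that a factor binds there.
Hspa5, chr2:34771840-34772139, plus strand: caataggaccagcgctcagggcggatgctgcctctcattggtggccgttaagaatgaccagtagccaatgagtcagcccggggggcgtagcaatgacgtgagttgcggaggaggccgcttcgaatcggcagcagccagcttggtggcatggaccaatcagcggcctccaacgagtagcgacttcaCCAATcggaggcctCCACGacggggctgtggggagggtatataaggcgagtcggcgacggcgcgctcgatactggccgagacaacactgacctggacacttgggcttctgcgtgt
Hsp90b1, chr10:86705395-86705694, minus strand: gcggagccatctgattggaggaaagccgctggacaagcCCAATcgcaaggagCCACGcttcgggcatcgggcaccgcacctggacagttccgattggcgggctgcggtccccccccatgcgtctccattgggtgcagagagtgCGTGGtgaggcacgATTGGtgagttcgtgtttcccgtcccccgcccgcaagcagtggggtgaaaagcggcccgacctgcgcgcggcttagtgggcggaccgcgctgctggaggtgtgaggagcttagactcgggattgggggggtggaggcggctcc
Herpud1, chr8:94386179-94386478, plus strand: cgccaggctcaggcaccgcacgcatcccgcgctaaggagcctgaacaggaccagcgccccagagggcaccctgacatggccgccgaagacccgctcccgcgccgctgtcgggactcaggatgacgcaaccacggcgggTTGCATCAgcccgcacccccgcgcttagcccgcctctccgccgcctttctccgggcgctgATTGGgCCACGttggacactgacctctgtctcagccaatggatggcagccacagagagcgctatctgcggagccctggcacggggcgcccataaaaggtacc
Asns, chr6:7693160-7693459, minus strand: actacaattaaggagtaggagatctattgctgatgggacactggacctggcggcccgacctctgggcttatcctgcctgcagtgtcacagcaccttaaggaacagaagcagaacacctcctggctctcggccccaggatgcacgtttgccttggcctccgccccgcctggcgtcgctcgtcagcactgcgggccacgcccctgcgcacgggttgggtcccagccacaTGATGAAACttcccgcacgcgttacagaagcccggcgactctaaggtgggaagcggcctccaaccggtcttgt
Chac1, chr2:119350992-119351291, plus strand: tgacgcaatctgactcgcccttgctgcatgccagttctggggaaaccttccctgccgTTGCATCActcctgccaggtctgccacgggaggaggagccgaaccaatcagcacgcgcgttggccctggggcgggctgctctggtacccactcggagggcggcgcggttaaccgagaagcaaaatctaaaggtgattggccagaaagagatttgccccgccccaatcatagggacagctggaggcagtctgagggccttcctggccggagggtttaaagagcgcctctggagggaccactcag

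Values are log2 levels made by RMA, 1 for each probe set and array. Array medians lay at 2.44 to 2.49 in skeletal muscle, 2.61 to 2.63 in heart and 3.68 to 3.71 in hippocampus. Arrays of the same group correlated at 0.982 to 0.993 over all probe sets, and no array stood apart. Markers fitted the labelled tissues: the summed level of skeletal muscle fibre genes was 14.78 to 14.80 in transgenic and 14.74 to 14.83 in wild type muscle arrays, against at most 11.3 in heart or hippocampus. Heart muscle genes and neuron genes were highest in the arrays of their own tissue. Among markers of other cells, 4 of 10 endothelial genes were lower in transgenic muscle and 2 of 10 in transgenic heart. The difference was below 0 for 10 of 10 in muscle (median −0.33), 9 in heart (median −0.30) and 4 in hippocampus (median 0.03). Every transgenic array lay below every wild type array for 4 endothelial genes in muscle and 8 in heart, against 10.3% and 9.35% of all probe sets. Their summed level was 9.30 to 9.71 in transgenic and 9.79 to 9.93 in wild type muscle, and 10.47 to 10.73 in transgenic and 10.92 to 10.99 in wild type heart. Adipocyte genes were higher for 2 of 8 in transgenic muscle, where their summed level was 9.19 to 9.38, against 8.71 to 9.07 in wild type muscle. In muscle 1 fibroblast, 1 macrophage and 1 heart muscle gene were also higher, and 1 neuron and 1 glial gene lower. In heart 1 heart muscle gene was higher, and 1 each of heart muscle, fibre, neuron and glial genes lower. Over all probe sets 4.3% were lower and 3.86% higher in muscle, and 1.62% and 1.57% in heart, by the threshold given below. Of 9 plasma and B cell markers only Mzb1, which encodes an ER co-chaperone of these cells, passed, with 1.98 higher levels (log2) in transgenic muscle and 1.34 higher levels in transgenic heart, and 6 to 8 of the 9 markers stood under the array median in muscle and heart. The part of these cell types in the results below was not tested.

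Each difference is the transgenic mean minus the wild type mean (log2), given ± the SE of a limma model fitted to all arrays and probe sets, with n = 3 arrays in each group. A gene was called where its adjusted p, by the Benjamini-Hochberg method over all probe sets, was under 0.05. All 6 groups shared 1 estimate of each gene's spread, and the calls within a tissue rested on this. With limma fitted to the arrays of 1 tissue alone, the differences were the same, but 0 of 32 members were called in muscle and 0 in heart. At an unadjusted p under 0.05 that fit had 12 lower and 2 higher members in muscle, and 13 lower and 2 higher in heart. Of all probe sets, 7.44% were lower and 7.85% higher at that threshold in muscle (12.1% and 11.9% of those above the median level), and 6.21% lower and 5.81% higher in heart (8.96% and 7.81%). Its smallest adjusted p for a member was 0.0644 in muscle (Hspa5) and 0.0793 in heart (Sdf2l1). It called 2.37% of all probe sets in muscle and 0.102% in heart.

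**Figure D1:**
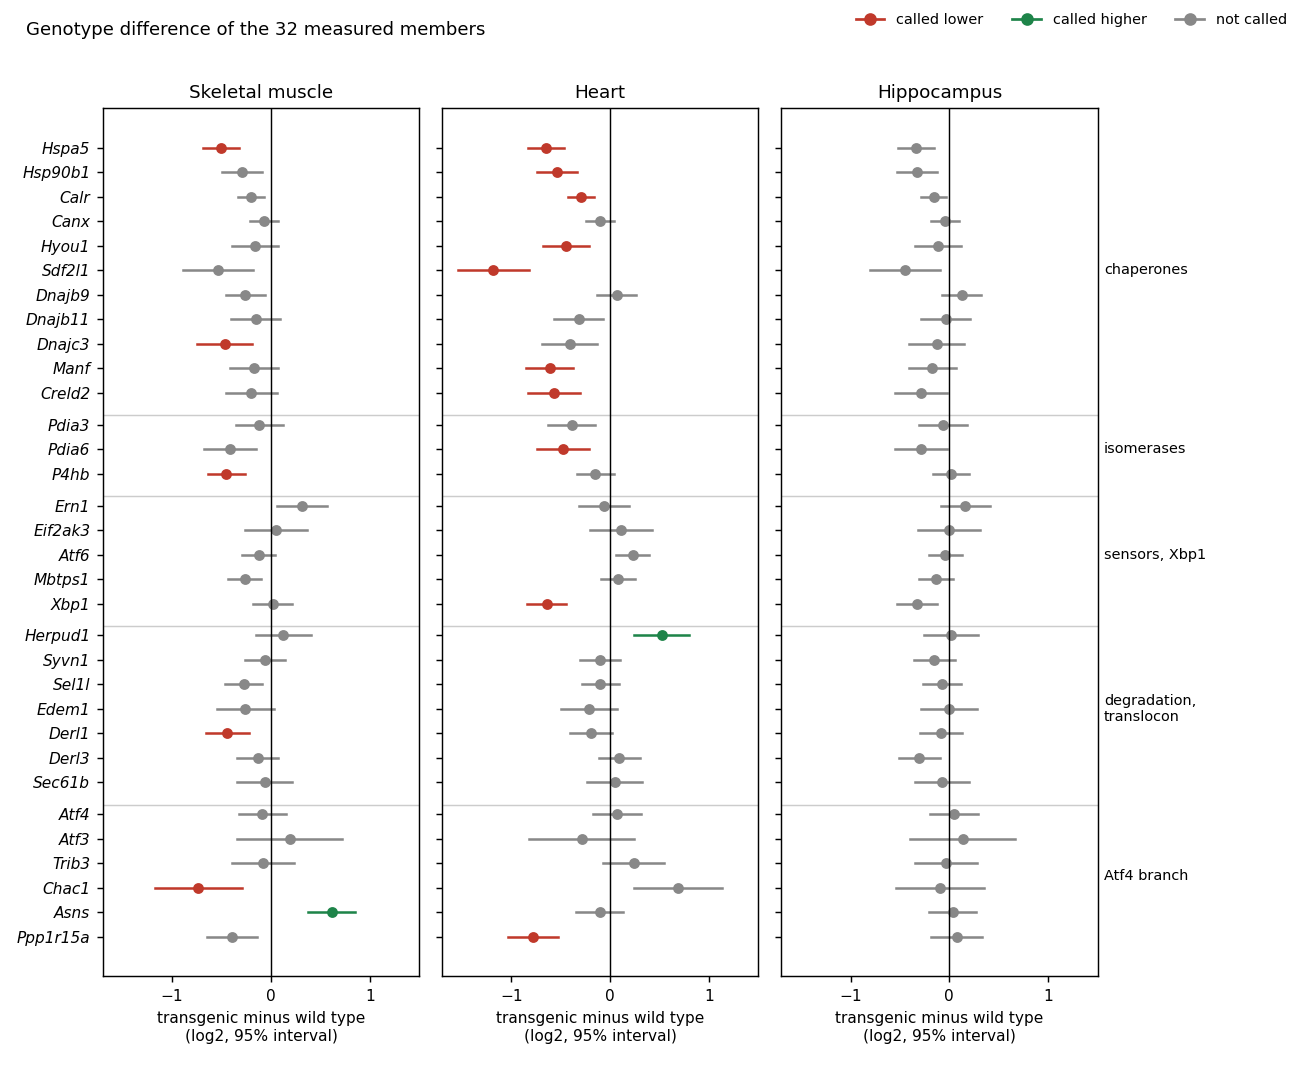
Genotype difference (transgenic minus wild type, log2, horizontal axis) of the 32 measured members in skeletal muscle, heart and hippocampus, with bars for the 95% confidence interval of the fit. Rows are grouped by role; red marks genes called lower, green genes called higher and grey genes not called. In heart 10 members lie in red and 1 in green, in skeletal muscle 5 and 1, and in hippocampus all 32 are grey.

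In transgenic heart 8 of the 14 chaperone and disulfide isomerase genes were called lower and 6 were not called. Of the 26 members outside the Atf4 branch in all, 9 fell and 1 rose. Over all probe sets 3.19% were called in heart, 1.62% lower and 1.57% higher, and of the probe sets above the median level 2.93% were called lower. The median difference of the 14 chaperones and isomerases was −0.43, against 0.00 over all probe sets. In 12 of these 14 genes every transgenic array lay below every wild type array, which was the case for 9.35% of all probe sets and 13.1% of those above the median level.

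Hspa5, which encodes BiP, the Hsp70 chaperone of the ER lumen, stood at 9.27, 9.39 and 9.17 in transgenic hearts, against 9.90, 9.86 and 10.01 in wild type hearts. The groups did not overlap, and the difference was −0.65 ± 0.09 (1.57-fold lower, adjusted p = 6.51e-04). Sdf2l1, a partner of BiP and its co-chaperone Dnajb11, had the largest difference of the members in heart. Its levels were 5.24, 5.10 and 5.03 in transgenic hearts, against 6.34, 5.96 and 6.62 in wild type hearts. All transgenic arrays were below the lowest wild type array, and the gene fell by 1.18 ± 0.17 (2.27-fold lower, adjusted p = 0.00112).

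Hsp90b1, the Hsp90 chaperone of the ER, had 7.73, 7.98 and 7.69 in transgenic hearts, against 8.24, 8.39 and 8.38 in wild type hearts. It fell by 0.54 ± 0.09 with no overlap (adjusted p = 0.0057). Manf, an ER-resident and secreted protein that binds BiP, stood at 3.42, 3.19 and 3.32 in transgenic hearts, against 3.94, 3.66 and 4.17 in wild type hearts. The groups were again separate, with a difference of −0.61 ± 0.11 (adjusted p = 0.00763). These 4 genes passed without each of the 6 heart arrays in turn.

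Calr, the calcium-binding lectin chaperone calreticulin, stood at 8.98, 9.01 and 8.99 in transgenic hearts, against 9.35, 9.30 and 9.23 in wild type hearts. The groups were separate by a small step, −0.30 ± 0.06 (adjusted p = 0.0157). Creld2, an ER luminal protein induced by ER stress, had 5.48, 5.15 and 5.55 in transgenic hearts, against 5.91, 5.90 and 6.09 in wild type hearts. It fell by 0.57 ± 0.12 (adjusted p = 0.0203), with 1 transgenic array lower than the others. Calr did not pass without wild type heart 1 (adjusted p = 0.0677) or transgenic heart 3 (0.0553), and Creld2 did not pass without wild type heart 3 (0.0781) or transgenic heart 2 (0.0821).

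Hyou1, the nucleotide exchange factor of BiP, stood at 6.31, 5.95 and 5.96 in transgenic hearts, against 6.43, 6.51 and 6.62 in wild type hearts. The highest transgenic array came close to the lowest wild type array, and the difference was −0.45 ± 0.11 (adjusted p = 0.0373). Pdia6, a disulfide isomerase, had 5.86, 6.05 and 5.50 in transgenic hearts, against 6.29, 6.18 and 6.39 in wild type hearts. Its transgenic arrays were spread more widely than its wild type arrays, and it fell by 0.48 ± 0.12 (adjusted p = 0.049). Hyou1 kept its call only without transgenic heart 1, and Pdia6 only without transgenic heart 2; without each of the other 5 heart arrays the adjusted p was 0.0597 to 0.143 for Hyou1 and 0.0689 to 0.183 for Pdia6. Pdia6 also did not pass with array quality weights (adjusted p = 0.0585).

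The other 6 chaperones and isomerases did not pass in heart. Pdia3 (−0.39), Dnajc3 (−0.41), Dnajb11 (−0.32) and P4hb (−0.15) had every transgenic heart below every wild type heart. Canx, the membrane-bound lectin chaperone calnexin, overlapped at −0.10 ± 0.07. Dnajb9, the BiP co-chaperone ERdj4, was the 1 gene of the 14 with a positive difference in heart, 0.07 ± 0.09, and its groups overlapped.

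**Figure D2:**
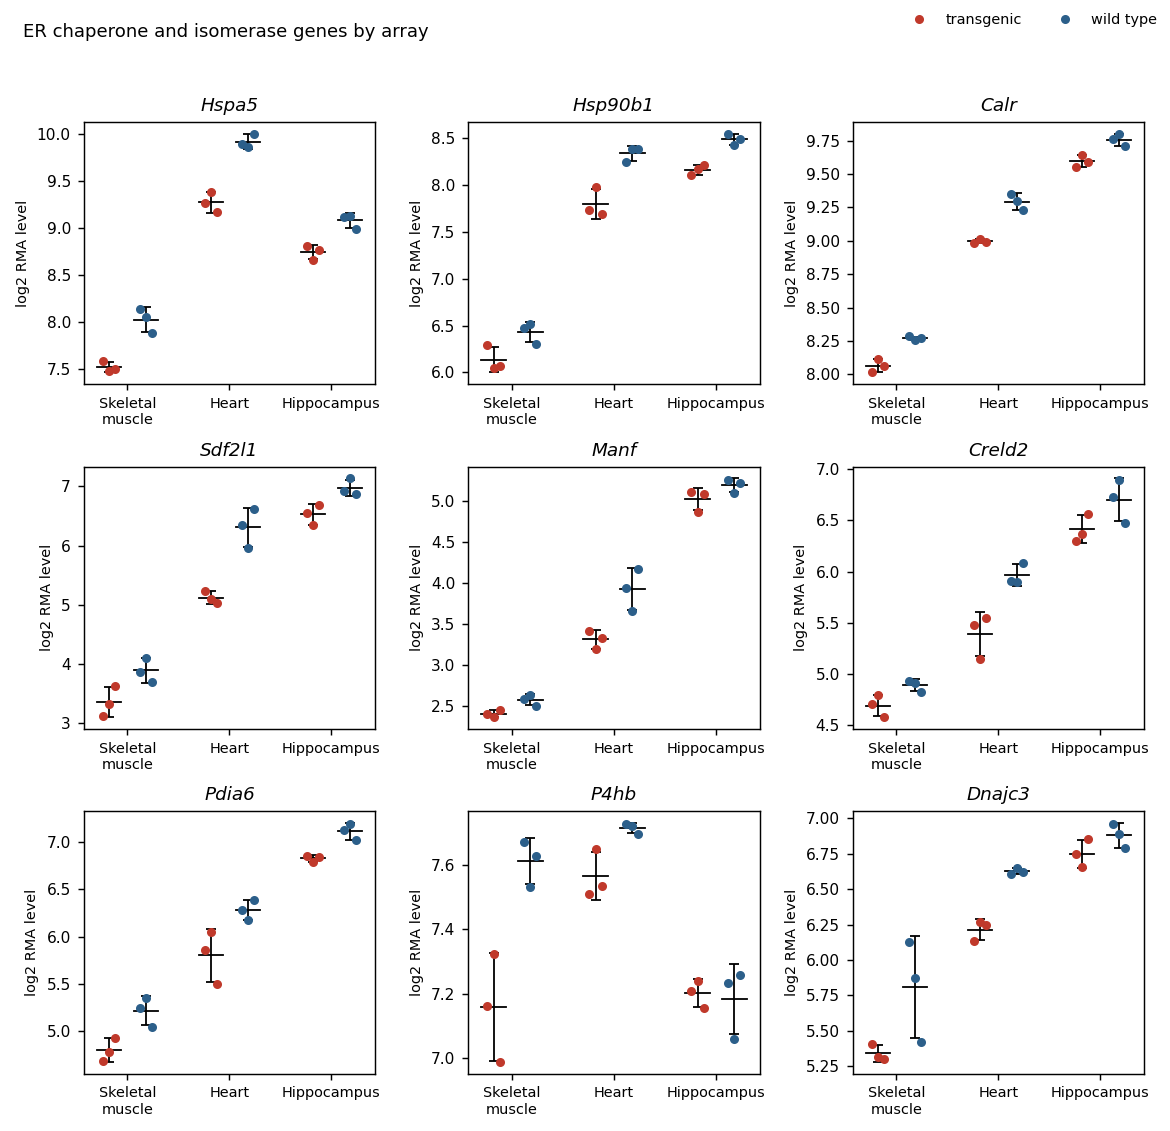
Log2 RMA level (vertical axis, a separate range in each panel) of 9 chaperone and isomerase genes in every array, with transgenic arrays in red to the left of wild type arrays in blue within each tissue; black lines are the group mean ± SD (n = 3). Hspa5, Hsp90b1, Calr, Sdf2l1 and Pdia6 have all transgenic arrays below all wild type arrays in each of the 3 tissues, and the gap for Sdf2l1 is widest in heart.

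In transgenic skeletal muscle the shift of the chaperones had the same direction, with fewer calls in the main fit. The number of members called in muscle rose with centred arrays, with an intensity trend and robust prior, and without dimmer probe sets. No chaperone or isomerase gene passed the later test of whether the genotype difference differs between tissues. All 14 chaperones and isomerases had a difference below 0, with a median of −0.23 against 0.02 over all probe sets, and 3 fell. Of all 26 members outside the Atf4 branch, 4 fell and 0 rose, and 22 had a difference below 0. Over all probe sets 8.15% were called in muscle, with 3.86% higher and 4.3% lower, and 8% of those above the median level were called lower. All transgenic arrays lay below all wild type arrays in 10 of the 14 chaperones and isomerases, against 10.3% of all probe sets and 15.7% of those above the median level.

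Hspa5 stood at 7.59, 7.48 and 7.50 in transgenic muscle, against 8.14, 8.05 and 7.89 in wild type muscle. The groups were separate, and the difference was −0.50 ± 0.09 (1.42-fold lower, adjusted p = 0.00145). P4hb, which encodes protein disulfide isomerase itself, had 7.16, 7.32 and 6.99 in transgenic muscle, against 7.67, 7.53 and 7.63 in wild type muscle. It fell by 0.45 ± 0.09 with no overlap (adjusted p = 0.0034). Both passed without each muscle array in turn.

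Dnajc3, the BiP co-chaperone p58IPK, stood at 5.41, 5.32 and 5.30 in transgenic muscle, against 6.13, 5.87 and 5.42 in wild type muscle. The lowest wild type array lay just above the highest transgenic array, and the difference was −0.47 ± 0.13 (adjusted p = 0.0364). Its call was kept only without wild type muscle 3, and the adjusted p was 0.0576 to 0.152 without each other muscle array. The 2 probe sets of Dnajc3 hold the same values and count once. Sdf2l1 (−0.53 ± 0.17, adjusted p = 0.0656), Pdia6 (−0.42 ± 0.12, 0.053), Calr (−0.21 ± 0.06, 0.0531) and Hsp90b1 (−0.30 ± 0.09, 0.0728) had separate groups in muscle and did not pass. The same held for Dnajb9 (−0.26 ± 0.09, adjusted p = 0.12), Creld2 (−0.20 ± 0.12, 0.443) and Manf (−0.17 ± 0.11, 0.482). Canx, Hyou1, Dnajb11 and Pdia3 had overlapping groups in muscle.

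In hippocampus limma called 0 of 32 members and 0 of 35382 probe sets. At an unadjusted p under 0.05, 8 members were lower and 0 higher in transgenic hippocampus, against 2.91% lower and 2.13% higher over all probe sets (2.55% and 2.32% of those above the median level). The median of the 14 chaperones and isomerases was −0.14, against −0.01 over all probe sets, and 12 of them were below 0. In 5 of the 14 every transgenic array lay below every wild type array, against 7.37% of all probe sets and 8.2% of those above the median level. The smallest adjusted p of a member was 0.562, for Hspa5.

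Hspa5 stood at 8.81, 8.66 and 8.77 in transgenic hippocampus, against 9.13, 9.14 and 8.99 in wild type hippocampus, a difference of −0.34 ± 0.09 without overlap. Xbp1 had 8.23, 8.17 and 8.42 in transgenic hippocampus, against 8.60, 8.73 and 8.48 in wild type hippocampus, which gave −0.33 ± 0.09, also without overlap. Hsp90b1 stood at 8.10, 8.17 and 8.21 in transgenic hippocampus, against 8.55, 8.43 and 8.49 in wild type hippocampus, with the same difference of −0.33 ± 0.09. These 3 genes had the smallest unadjusted p of the members in this tissue. The fourth, Derl3, stood low in the array, at 3.55, 3.52 and 3.72 in transgenic hippocampus, against 4.07, 3.76 and 3.87 in wild type hippocampus (−0.30 ± 0.10). Its groups were separate, and its adjusted p was 0.8.

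The mean of the 3 genotype differences was lower for 13 members and higher for 0. Over all probe sets 5.8% were called for this mean, 2.59% higher and 3.21% lower, and 6.04% of those above the median level were called lower. Of the 14 chaperones and isomerases 10 fell: Hspa5 by 0.50 ± 0.05 (adjusted p = 2.86e-05), Sdf2l1 by 0.72 ± 0.10 (3.30e-04), Hsp90b1 by 0.39 ± 0.05 (5.31e-04), Calr by 0.22 ± 0.04 (0.00147), Pdia6 by 0.39 ± 0.07 (0.00357), and Creld2, Manf, Dnajc3, P4hb and Hyou1 by 0.19 to 0.35. The groups of Hspa5, Hsp90b1, Calr, Sdf2l1 and Pdia6 were separate in every tissue. The other 3 members that fell were Xbp1 (−0.32 ± 0.05), Derl1 (−0.24 ± 0.06) and Ppp1r15a (−0.37 ± 0.07).

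Which tissues carried the mean was examined by leaving each out, an alternative chosen after seeing the data. Over heart and hippocampus 7 members were lower, with 0.975% of all probe sets called in either direction. Over muscle and hippocampus 5 were lower and 1 higher, with 3.85% called, and over muscle and heart 13 were lower and 1 higher, with 8.86% called. Hspa5, Hsp90b1, Calr and Sdf2l1 passed in all 3 of these means. Without each of the 18 arrays in turn, 10 of the 13 kept their call. P4hb and Hyou1 lost it without 13 of the 18 arrays (adjusted p up to 0.07 for each), P4hb also after quantile normalization (0.0572), and Derl1 lost it without transgenic hippocampus 1 (0.0522).

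**Figure D3:**
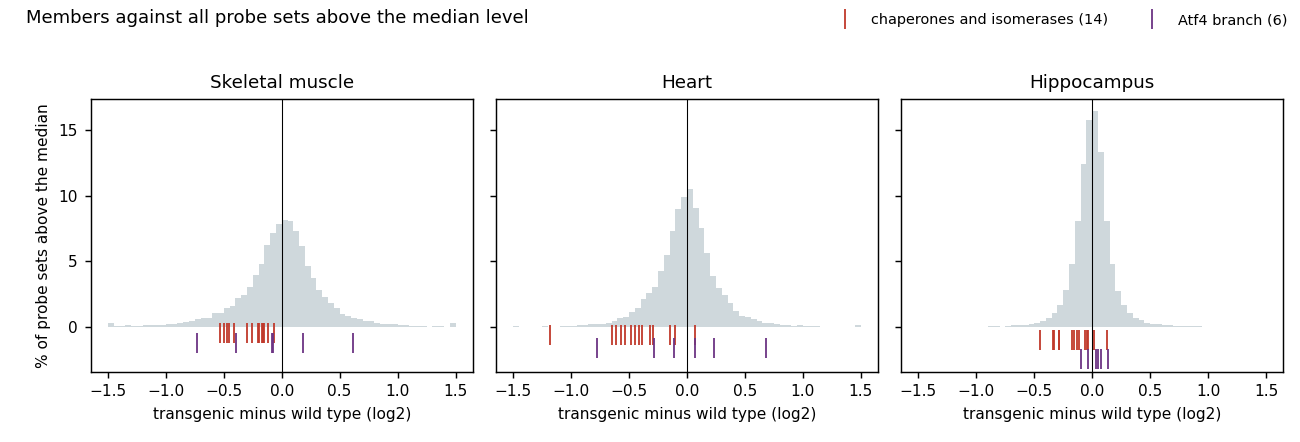
Distribution of the genotype difference (log2, horizontal axis) over the 17691 probe sets above the median level as grey bars (percent of them, with values beyond 1.5 in the outermost bars), with ticks below for the 14 chaperones and isomerases in red and the 6 genes of the Atf4 branch in purple. The red ticks lie left of 0 for all 14 genes in skeletal muscle, 13 in heart and 12 in hippocampus, and the purple ticks lie on both sides of 0.

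Of the 9 members with an ERSE match, 6 fell in the mean difference (Hspa5, Hsp90b1, Calr, Pdia6, Dnajc3 and Creld2), and the median was −0.34. Canx (−0.07), Syvn1 (−0.11) and Derl3 (−0.12) did not pass. Of the 19 measured members with a window and no match, 4 fell, and the median was −0.05. Over all probe sets 3.21% were called lower for this mean. The 2 sets differ in role: the 19 include the 6 genes of the Atf4 branch and sensor genes. All of the 9 but Syvn1 and Derl3 are chaperones or isomerases. Hyou1, Manf and Derl1, which also fell in the mean, had no window and are in neither set. Sdf2l1, with the widest difference in heart, was among those without an exact match. The counts are a description, since members were chosen as genes of this response, and no test of the element was made.

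Of the sensors and the site-1 protease gene, 0 of 4 passed in any tissue by limma. At an unadjusted p under 0.05, Ern1 was higher and Mbtps1 lower in muscle, Atf6 was higher in heart, and 0 of 4 passed in hippocampus. At that threshold 10.1% of all probe sets were higher and 8.95% lower in muscle, and 7.45% were higher in heart. Ern1 stood at 4.87, 5.08 and 5.05 in transgenic muscle, all above the 4.74, 4.50 and 4.82 of wild type muscle (0.31 ± 0.12, adjusted p = 0.138). In hippocampus Ern1 was also separate upward (0.16 ± 0.12), and in heart its groups overlapped at −0.06 ± 0.12. Atf6 was separate upward in heart (0.23 ± 0.08, adjusted p = 0.153), where all transgenic arrays were above all wild type arrays. In muscle Atf6 was separate in the other direction, with all transgenic arrays below all wild type arrays (−0.12 ± 0.08, adjusted p = 0.454). Its difference in hippocampus was −0.04 ± 0.08. Eif2ak3 differed by −0.00 to 0.11 over the 3 tissues with overlapping groups. Mbtps1, the site-1 protease that cleaves ATF6, differed by −0.27 in muscle, 0.08 in heart and −0.13 in hippocampus, and did not pass.

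Xbp1, the transcription factor whose message IRE1 splices, was lower in transgenic heart and not in muscle. It stood at 7.53, 7.81 and 7.61 in transgenic hearts, against 8.24, 8.24 and 8.40 in wild type hearts. The groups lay well apart, with a difference of −0.64 ± 0.09 (1.56-fold lower, adjusted p = 0.00136), and the call was kept without each heart array in turn. In muscle its levels were 7.90, 7.88 and 7.92 in transgenic arrays, against 7.90, 7.81 and 7.93 in wild type arrays, a difference of 0.02 ± 0.09. The difference between these 2 genotype differences was −0.66 ± 0.13 (adjusted p = 0.0141; 2.55% of all probe sets were called for this contrast). The probe set gives the level of the transcript and not its splicing.

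Among the genes of ER-associated degradation and the translocon the 2 calls had opposite signs. Herpud1, which encodes a scaffold of the degradation complex, was the 1 member outside the Atf4 branch that rose. It stood at 9.40, 9.59 and 9.82 in transgenic hearts, against 9.00, 8.88 and 9.36 in wild type hearts. The lowest transgenic array lay just above the highest wild type array, and the difference was 0.52 ± 0.13 (1.44-fold higher, adjusted p = 0.0416). Its call was lost without wild type heart 1 (adjusted p = 0.138) or 2 (0.153) and without transgenic heart 2 (0.0996) or 3 (0.172). It was also lost after quantile normalization over all arrays (0.45, adjusted p = 0.071). In hippocampus the groups overlapped at 0.02 ± 0.13.

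Derl1, which encodes a membrane protein of the degradation channel, had 6.51, 6.40 and 6.62 in transgenic muscle, against 7.08, 6.99 and 6.77 in wild type muscle. It fell by 0.44 ± 0.10 with no overlap (adjusted p = 0.0115), and did not pass without wild type muscle 1 (0.0575) or transgenic muscle 2 (0.0538). Sel1l, the adaptor of the ubiquitin ligase Syvn1, had separate groups in muscle at −0.28 ± 0.09 (adjusted p = 0.0748). Syvn1 itself differed by −0.15 to −0.06 over the 3 tissues. Edem1, which hands glycoproteins to degradation, differed by −0.26 in muscle, −0.22 in heart and −0.00 in hippocampus, with overlapping groups. Sec61b, a subunit of the translocon, was read from the brightest of 3 probe sets and differed by −0.07 to 0.05. The other probe sets disagreed in part: 1 stood 0.38 ± 0.12 higher in heart with overlapping groups (adjusted p = 0.127), and the other differed by 0.10 ± 0.13 there.

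The 6 genes of the Atf4 branch had no common direction. In muscle 1 rose and 1 fell, in heart 1 fell, and in hippocampus limma called 0, with 0 at an unadjusted p under 0.05. These counts stand against 8.15%, 3.19% and 0% of all probe sets. Their median difference was −0.08 in muscle, −0.02 in heart and 0.04 in hippocampus. Atf4 itself stood at 4.36, 4.55 and 4.82 in transgenic muscle, against 4.65, 4.61 and 4.73 in wild type muscle. Its differences were −0.09, 0.07 and 0.05 ± 0.11 in muscle, heart and hippocampus, all with overlapping groups. Since ATF4 is controlled to a large part at translation, its transcript level does not measure its activity.

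Asns, which encodes asparagine synthetase, was higher in transgenic muscle. It stood at 3.99, 4.10 and 4.49 in transgenic muscle, against 3.62, 3.66 and 3.46 in wild type muscle. All transgenic arrays were above all wild type arrays, with a difference of 0.61 ± 0.11 (1.53-fold higher, adjusted p = 0.00214) that passed without each muscle array in turn. In heart the 3 transgenic arrays, at 3.78, 3.86 and 3.85, lay below the 3 wild type arrays, at 3.95, 3.97 and 3.89, by a difference that did not pass (−0.11 ± 0.11).

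Chac1, which encodes an enzyme that breaks down glutathione, differed in opposite directions in muscle and heart. In muscle it stood at 7.58, 7.24 and 7.17 in transgenic arrays, against 7.58, 8.01 and 8.61 in wild type arrays. The highest transgenic array and the lowest wild type array were level to 2 decimals, and the difference was −0.73 ± 0.21 (1.66-fold lower, adjusted p = 0.0401). The call was lost without wild type muscle 2 (adjusted p = 0.0826) or 3 (0.163, difference −0.46) and without transgenic muscle 2 (0.117) or 3 (0.135). It was also lost after quantile normalization (adjusted p = 0.0585) and with array quality weights (0.0563). In heart it stood at 4.86, 4.59 and 4.90 in transgenic arrays, against 4.11, 3.84 and 4.34 in wild type arrays, separate upward at 0.68 ± 0.21 without passing (adjusted p = 0.0982). The heart difference minus the muscle difference was 1.42 ± 0.29 (adjusted p = 0.0165).

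Ppp1r15a, which encodes GADD34, the subunit that directs a phosphatase to eIF2 alpha, was lower in transgenic heart. It stood at 3.71, 3.67 and 3.46 in transgenic hearts, against 4.59, 4.37 and 4.22 in wild type hearts. The groups were separate, and the gene fell by 0.78 ± 0.12 (1.72-fold lower, adjusted p = 0.00203), a call kept without each heart array. In muscle its transgenic arrays also lay below the wild type arrays, by 0.40 ± 0.12 (adjusted p = 0.0551). In hippocampus the groups overlapped at 0.07 ± 0.12, and the hippocampus difference minus the heart difference was 0.85 ± 0.17 (adjusted p = 0.0366; 0.582% of all probe sets were called for this contrast).

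Atf3, a stress-induced partner of ATF4, ranged from 4.78 to 6.16 over the wild type muscle arrays alone and did not pass in any tissue. Trib3, a pseudokinase induced by ATF4, stood below the array median in all 6 groups and did not pass. Its difference was −0.08 in muscle, 0.24 in heart and −0.03 in hippocampus. In heart 2 of the 6 genes, Chac1 and Trib3, had every transgenic array above every wild type array, against 9.19% of all probe sets. For 2 others, Asns and Ppp1r15a, every transgenic array lay below, against 9.35%.

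**Figure D4:**
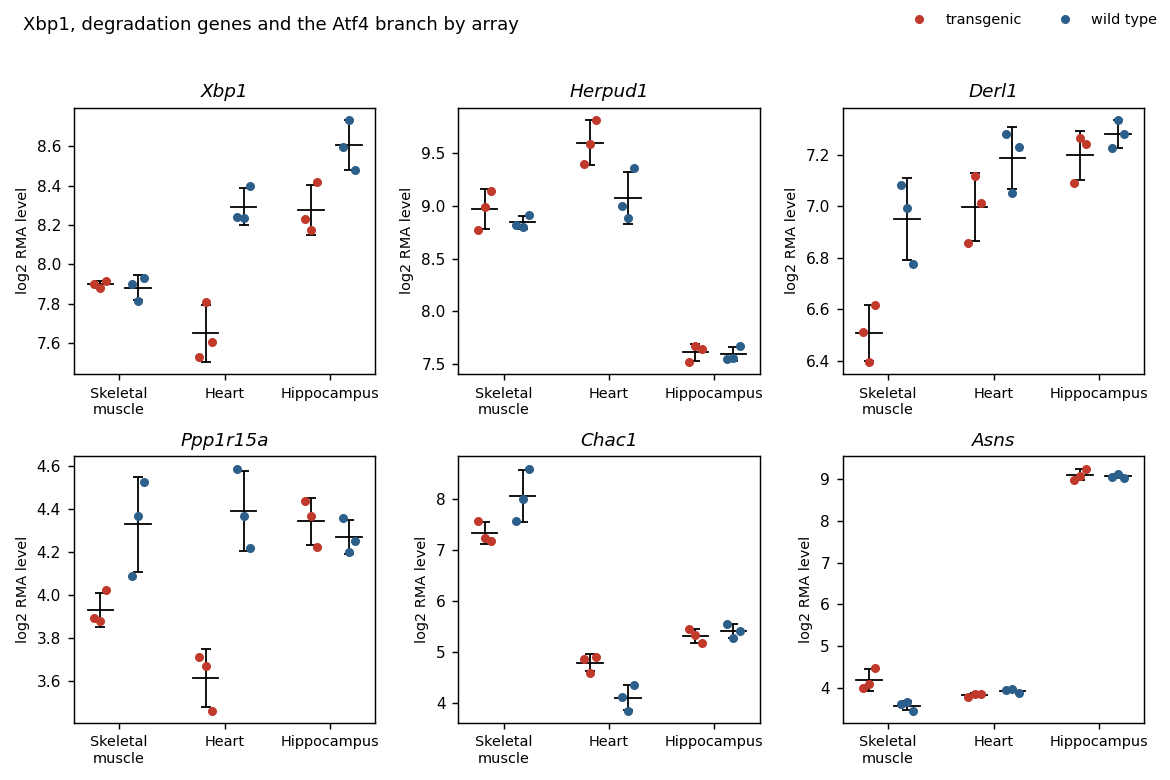
Log2 RMA level (vertical axis, a separate range in each panel) of Xbp1, Herpud1, Derl1 and 3 genes of the Atf4 branch in every array, transgenic in red to the left of wild type in blue within each tissue, with black lines for the mean ± SD (n = 3). Xbp1 and Ppp1r15a are separate in heart, Asns is higher in transgenic than in wild type muscle and stands near 9 in hippocampus of both genotypes, and Chac1 lies lower in transgenic muscle and higher in transgenic heart.

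The test of whether the genotype difference itself differs between tissues called 4 of 32 members, against 3.89% of all probe sets and 7% of those above the median level. These were Ppp1r15a (adjusted p = 0.024), Xbp1 (0.0261), Asns (0.0286) and Chac1 (0.0301), 3 of them in the Atf4 branch. None of the 14 chaperones and isomerases passed this test at the same threshold of limma's moderated F test, although P4hb (0.0932) passed in the contrast of hippocampus against muscle alone (0.47 ± 0.12, adjusted p = 0.0492; 3.4% of all probe sets). At an unadjusted p under 0.05 the chaperone and isomerase genes with an interaction were P4hb, Sdf2l1, Manf and Dnajb9, against 15.9% of all probe sets and 23.8% of those above the median level. The number of members called, 4 with all arrays, fell to 0 without transgenic heart 3, to 1 without transgenic heart 1 or transgenic hippocampus 2, and to 2 without wild type muscle 1 or 2, transgenic muscle 3 or wild type heart 1. Without wild type heart 2, 3 members were called, and neither Asns nor Chac1 was among them. Each of the 4 calls was lost without 5 to 8 of the 18 arrays.

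Levels in wild type tissues were compared only where a gene passed in the same direction on values as deposited, centred on the array medians and quantile normalized. The differences printed here are on the values as deposited. Against muscle, 15 members were higher in heart and 4 lower, with 16% and 13% of all probe sets. Of the probe sets above the median level, 27% were higher and 18.1% lower. The 15 included 11 of the 14 chaperones and isomerases, among them Hspa5 at 9.92 ± 0.08 in heart and 8.03 ± 0.13 in muscle (SD), Hsp90b1 at 8.34 ± 0.08 and 6.43 ± 0.11, and Canx at 9.25 ± 0.01 and 7.70 ± 0.05. The 4 lower in heart were Sec61b, Atf4, Atf3 and Chac1.

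Hippocampus had 14 members higher and 4 lower than muscle, with 18.5% and 8.05% of all probe sets (30.6% and 14.4% of those above the median level). Against heart it had 4 higher and 5 lower, with 18.1% and 9.46% (29.5% and 17%). Hspa5 was lower in hippocampus than in heart (−0.84 ± 0.09 as deposited, adjusted p = 3.04e-07), as were P4hb, Atf6, Herpud1 and Atf3. Eif2ak3, Sel1l, Derl3 and Asns were higher in hippocampus than in heart. The number of members called in each direction without this rule changed with the scaling: hippocampus against muscle had 26 higher and 4 lower as deposited (70.1% and 8.1% of all probe sets), 14 and 14 when centred, and 17 and 11 after quantile normalization. Hippocampus against heart had 23 higher and 5 lower as deposited (67.3% and 9.46% of all probe sets), 4 and 20 when centred, and 4 and 16 after quantile normalization. Centring moved the median of all differences by −1.26 and −1.09 in these contrasts.

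Asns had the widest range of the members over wild type tissues, with 9.06 ± 0.05 in hippocampus, 3.94 ± 0.04 in heart and 3.58 ± 0.10 in muscle. Heart and muscle did not differ in the same direction under all scalings. Chac1 ran the other way and was highest in muscle, at 5.41 ± 0.14 in hippocampus, 4.10 ± 0.25 in heart and 8.06 ± 0.52 in muscle. Sdf2l1 stood at 6.97 ± 0.14 in hippocampus, 6.30 ± 0.33 in heart and 3.89 ± 0.21 in muscle, and Manf at 5.19 ± 0.08, 3.92 ± 0.26 and 2.57 ± 0.07 in the same order. Both were higher in heart and in hippocampus than in muscle, and neither differed between hippocampus and heart under all scalings.

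Hyou1, at 7.63 ± 0.10 in hippocampus, 6.52 ± 0.10 in heart and 5.21 ± 0.15 in muscle, was higher in heart and in hippocampus than in muscle under all scalings. Its hippocampus and heart levels differed by 1.11 as deposited, 0.02 when centred (adjusted p = 0.847) and 0.19 after quantile normalization (0.157), so no order is given for this pair. Eif2ak3 stood at 5.95 ± 0.11, 4.37 ± 0.12 and 3.57 ± 0.31 in hippocampus, heart and muscle, and each step was called under all scalings. Ranked within the array, wild type levels of the members ran from percentile 32.1 (Trib3 in hippocampus) to percentile 99 (Hspa5 in heart).

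**Figure D5:**
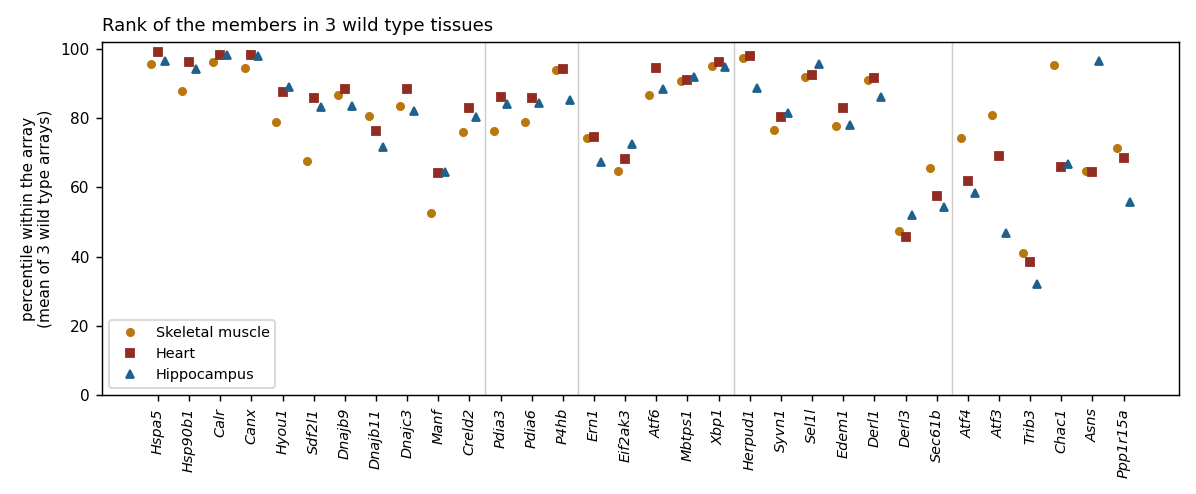
Percentile of each measured member among all probe sets of an array (vertical axis, mean of 3 wild type arrays) in skeletal muscle, heart and hippocampus, with genes grouped by role from chaperones at the left to the Atf4 branch at the right. Hspa5, Calr, Canx and Xbp1 stand above percentile 94 in every tissue, and Atf3, Asns and Chac1 change rank most between tissues.

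Other genes of the same pathways were taken from lists of 117 genes, of which 106 were measured. In transgenic muscle 5 rose and 16 fell, against 3.86% and 4.3% of all probe sets. In transgenic heart 3 rose and 1 fell, against 1.57% and 1.62%, and in hippocampus limma called 0, with 0 higher and 1 lower at an unadjusted p under 0.05. Of the 24 further folding enzymes, 5 fell in muscle. Those named by smallest p were Prkcsh (−0.54 ± 0.08) and Uggt1 (−0.57 ± 0.10), which act in glycoprotein trimming and folding control, and Hspa13 (−0.60 ± 0.11). The lowest difference of the 24 in muscle was −0.68. Txndc5, a disulfide isomerase, rose there by 0.64 ± 0.12. In heart limma called 0 of the 24, with 1 higher and 3 lower at an unadjusted p under 0.05, and their median was −0.09, against −0.43 for the 14 chaperones and isomerases among the members.

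Of 20 further genes of the translocon and signal peptide processing, 4 fell in muscle, and Rpn2, a subunit of the oligosaccharyltransferase, had the smallest p (−0.67 ± 0.08, adjusted p = 5.91e-05). Ssr2 and Ssr4, subunits of the translocon-associated protein complex, fell there by 0.34 ± 0.08 and 0.32 ± 0.09. Sec63, a translocon partner of BiP, rose there by 0.37 ± 0.10, and Rpn1 fell in heart by 0.28 ± 0.07 (adjusted p = 0.0499). The counts in this paragraph stand against 4.3% of all probe sets lower and 3.86% higher in muscle, and 1.62% and 1.57% in heart. Of 18 further degradation genes, 2 rose and 3 fell in muscle, and Nploc4, a cofactor of the segregase p97, rose in muscle by 0.48 ± 0.08 and in heart by 0.34 ± 0.08. Marchf6, a ubiquitin ligase of the ER membrane, fell in muscle by 0.58 ± 0.09, as did Man1b1, a mannosidase gene, by 0.52 ± 0.12, while Ube2g2, which encodes a ubiquitin-conjugating enzyme, rose by 0.36 ± 0.08. Of 11 further sensor and eIF2 alpha kinase genes only Bcl2l11, which encodes the cell death protein BIM, passed, and it fell in muscle by 0.45 ± 0.10.

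Known ATF4 targets outside the members were called in both directions in muscle and for the mean, and only higher in heart. In muscle 2 of 23 fell, the amino acid transporter gene Slc38a2 by 1.25 ± 0.12 and Gpt2, an alanine aminotransferase gene, by 0.95 ± 0.14. Stc2, which encodes a secreted glycoprotein, rose in muscle by 1.33 ± 0.30. Over all probe sets 4.3% were called lower and 3.86% higher in muscle, and 15 of the 23 targets lay above 0. In heart 2 of 23 rose, Eif4ebp1, an inhibitor of cap-dependent translation, by 0.58 ± 0.09 and the amino acid transporter gene Slc7a5 by 0.72 ± 0.15. Over all probe sets 1.57% were called higher in heart, where 17 of the 23 lay above 0 (median 0.18, against 0.00). In the mean difference 5 of the 23 rose and 1 fell, among them the serine and folate pathway genes Psat1 (0.46 ± 0.10) and Mthfd2 (0.46 ± 0.10). For this mean 2.59% of all probe sets were called higher and 3.21% lower, and 13 of the 23 lay above 0. Of 10 aminoacyl-tRNA synthetase genes 1 passed, Wars1, which fell in muscle by 0.77 ± 0.12.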

How the data were processed

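RNA of skeletal muscle, heart and hippocampus was measured on 18 Affymetrix whole-transcript arrays, 3 per tissue and genotype. Per the submitters' processing notes, the authors used R 2.10.0 and RMA, which gives background-corrected, normalized log2 levels, and these are the deposited values. Whether all arrays were normalized together is not stated, and array medians differ between tissues. Gene symbols came from the platform annotation. Of 35382 probe sets, 21153 carried 1 symbol, 1867 several and 12362 none.

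From these values, limma 3.58.1 (R 4.3.3) was fitted to all probe sets with 6 groups and no block (12 residual and 2.67 prior degrees of freedom). It gave the genotype difference in each tissue, its mean, its interaction with tissue, and the differences between wild type tissues. Adjusted p-values were taken by the Benjamini-Hochberg method over all probe sets, with a threshold of 0.05. No probe set was filtered out. Genes with more than 1 probe set were read from the brightest. The code was tested on simulated data. All members were accounted for. Values in every array were given for called members and for the 4 with the smallest p in hippocampus, and tissue levels for the 6 members with the widest range of wild type means. Of other pathway genes, up to 4 called genes per list and tissue were named, by smallest p. Members and gene lists were chosen with earlier results of these data known. Alternatives were a replicate block, a random animal block across tissues by array number, array weights, and other scalings and priors. Further alternatives were a filter on dim probe sets, a stricter threshold, fits of 1 tissue and leaving out each array. Promoter windows were RefSeq's (GRCm38.p6), and 30 of the 34 members matched. Figures used matplotlib 3.10.9.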

Additional observations from a re-analysis of the deposited data

Results flagged for a closer look

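The genotype difference itself differed between tissues for 4 members by limma's moderated F test over all probe sets. The adjusted p was 0.024 for Ppp1r15a, with differences of −0.40 in muscle, −0.78 in heart and 0.07 in hippocampus. It was 0.0261 for Xbp1, with 0.02 in muscle, −0.64 in heart and −0.33 in hippocampus. It was 0.0286 for Asns, with 0.61 in muscle, −0.11 in heart and 0.03 in hippocampus. It was 0.0301 for Chac1, with −0.73 in muscle, 0.68 in heart and −0.10 in hippocampus. Without single arrays in turn, the highest adjusted p was 0.065 for Ppp1r15a, 0.0654 for Xbp1, 0.0776 for Asns and 0.0736 for Chac1.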

How the results depend on the processing

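Each result was recomputed under the alternatives that apply to it, 16 for a call within a tissue, 27 for the interaction and 30 for the mean. The 34 called values of single members gave 770 values in all. Of these, 622 stayed on the same side of the threshold, 148 no longer passed and 0 reversed. The interaction results were followed by their adjusted p, which has no direction, so a reversal could not occur for them. Members called in muscle (6) became 13 without dimmer probe sets (of 30 tested, with 19.9% of probe sets called), 11 with arrays centred on their median (8.02%), 11 with an intensity trend and robust prior (8.93%), 3 at an adjusted p under 0.01 (4.54%) and 0 with the arrays of muscle alone (2.37%), where 8.15% of all probe sets were called before. Members called in heart (11) became 7 with the replicate block (1.48%), 6 at an adjusted p under 0.01 (1.12%) and 0 with the arrays of heart alone (0.102%), against 3.19% before. Interaction calls (4) became 1 with the replicate block (1.61%) and 0 at an adjusted p under 0.01 (1.64%), against 3.89% before. The mean difference (13) had 7 calls over heart and hippocampus (0.975% of probe sets) and 6 over muscle and hippocampus (3.85%), both chosen after seeing the data. Leaving out 1 array gave 3 to 7 calls in muscle (3 without transgenic muscle 2; 6.39 to 7.47% of all probe sets), 7 to 10 in heart (7 without wild type heart 1 or transgenic heart 3; 1.68 to 2.8%), 0 in hippocampus, 10 to 13 for the mean (4.55 to 5.69%) and 0 to 4 for the interaction (2.63 to 3.72%). Calls within a tissue were recomputed only without the 6 arrays of that tissue. Hippocampus had 0 members called under every alternative run, with 8 lower and 0 higher at an unadjusted p under 0.05 in the limma fit to all arrays.

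The array numbers were not taken as pairs: deviations of same-numbered transgenic and wild type arrays correlated at −0.031 to 0.04. With the replicate block, 4 members were called in muscle (5.96%), 0 in hippocampus and 10 for the mean (3.84%). Calls lost with the replicate block were Dnajc3, Derl1 and Chac1 in muscle (adjusted p = 0.06 to 0.0969), Calr, Hyou1, Creld2 and Pdia6 in heart (0.0676 to 0.176), Hyou1, P4hb and Derl1 for the mean (0.107 to 0.148), and Xbp1, Chac1 and Asns for the interaction (0.115 to 0.155). The number of arrays limits the precision, and low levels such as those of Trib3 and Derl3 lie near the array median or under it.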
